A study of Rattus norvegicus with 6 samples.

Results

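The genes described here are 10 stress genes of the ATF4 pathway in BRL-3A, a cell line derived from rat liver: Atf4, Atf5, Atf3, Ddit3, Trib3, Chac1, Asns, Stc2, Sesn2 and Ddit4. They were chosen by name from the gene table of the study, with earlier results of these data known. Each symbol matched 1 gene model, so that 10 of 30957 models are concerned. The table holds RNA sequencing of 6 libraries, 3 labelled si-hnrnpa2b1 and 3 labelled NC. The protocol has siRNA carried into the cells with a lipid reagent for 48 h before harvest. All 6 libraries carry the same strain (Sprague-Dawley), tissue (liver), cell line, and a disease label of raised triglycerides. NC is not spelled out, and the labels do not say what those cells were transfected with. The siRNA is named for Hnrnpa2b1, an RNA-binding protein of the hnRNP family that acts in splicing and in the transport and stability of transcripts.

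ATF4 is the transcription factor of the integrated stress response. In that response, kinases that sense amino acid shortage, misfolded protein in the endoplasmic reticulum, haem shortage or double-stranded RNA phosphorylate the initiation factor eIF2alpha, which lowers general translation while ATF4 mRNA, held back by upstream open reading frames, is translated more. ATF4 protein then raises genes of amino acid supply, further transcription factors such as CHOP (encoded by Ddit3) and feedback inhibitors. In the liver the pathway is best known for the response to low protein intake and to stress of the secretory pathway.

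Of the 10 genes, 7 rose in si-hnrnpa2b1 cells and 3 did not pass the test. Stc2, Ddit3, Chac1, Trib3 and Sesn2 rose by 91.0%, 65.1%, 62.7%, 45.9% and 42.6%, while Asns and Atf4 itself rose by 19.6% and 16.9%. Atf5, Atf3 and Ddit4 did not pass. A gene is said to have risen or fallen where its p from the quasi-likelihood test of edgeR, adjusted by Benjamini-Hochberg over all 12261 genes tested, was below 0.05. All 10 genes passed the filter on low counts and were tested. Among all tested genes 5.30% were called, 2.36% as higher and 2.94% as lower in si-hnrnpa2b1 cells. The median log2 fold change of the 10 genes was 0.39, beside a median of -0.00 over all tested genes. Of the 10 genes, 8 had a log2 fold change above 0, as had 49.6% of all tested genes. In 7 of the 10 genes, all si-hnrnpa2b1 values lay above all NC values, an order that 11.5% of all tested genes showed. These were the 7 genes that rose, so their order is no separate result. The 10 genes were chosen with earlier results of these data known, so the comparisons with all tested genes are descriptive.

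Levels are given as CPM, the read count of a gene relative to the total of its library, scaled by the trimmed mean of M-values. Each log2 fold change sets si-hnrnpa2b1 over NC and has its SE beside it. Comparisons of level between genes use FPKM, the authors' value per kilobase of gene model. Libraries held 14700371 to 15224108 counts in si-hnrnpa2b1 and 13374412 to 14751764 counts in NC. Hnrnpa2b1 had 662, 585 and 574 CPM in si-hnrnpa2b1 libraries, against 954, 1065 and 1025 CPM in NC libraries (log2 -0.74 ± 0.06, edgeR adjusted p = 2.3e-06), so the targeted mRNA fell by 40.2% and was still abundant. Of 15 gene models of hepatocyte markers, 8 were listed at 0 in every library, Alb, Ttr, Apob and Hnf4a among them. By contrast, Tf had 26.7 to 33 CPM and a model of G6pc 187 to 218 CPM over the 6 libraries. A second model of G6pc had 8 counts in all. Of 12 mesenchymal marker models, Col1a2 and Lrat were listed at 0 and Thy1 had 1 count, whereas the collagen Col1a1 had 11435 to 12278 CPM in si-hnrnpa2b1 libraries and 11531 to 11952 CPM in NC libraries. Some genes that every cell uses, such as Hsp90aa1, were listed at 0 as well, so a listed 0 is not read as absence. Marker levels were also summed per library total without that scaling. For hepatocyte markers the sum was 232 to 244 CPM in si-hnrnpa2b1 and 218 to 222 CPM in NC. Nearly all of that came from the higher G6pc model and Tf. The summed level was 34.7 to 36.4 CPM in si-hnrnpa2b1 and 37.9 to 39.7 CPM in NC for cholangiocyte markers. It was 50.8 to 52.8 CPM in si-hnrnpa2b1 and 46.8 to 51 CPM in NC for endothelial markers, and 18.3 to 20 CPM in si-hnrnpa2b1 and 15.6 to 18.2 CPM in NC for leukocyte markers. For mesenchymal markers it was 15250 to 16020 CPM in si-hnrnpa2b1 and 15284 to 15802 CPM in NC. Of the 9 tested, 3 rose (Tagln, Acta2 and Des), beside 2.36% of all tested genes called higher. The model of Tagln overlaps that of Sidt2 over 1019 bases. Sidt2 held 7446 counts over the 6 libraries, beside 8452 for Tagln. The part of the marker levels in the results was not tested. Cells of one kind that are fewer and cells that hold less of an RNA cannot be told apart in such bulk libraries. The labels do not say whether the 3 libraries of a group came from separate cultures, and p-values thus cover only the spread of these libraries, which may be technical.

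ATF4 binds, as a dimer with C/EBP proteins, a composite element whose core is TGATGNAA (N is any base). The element was searched, on both strands, in the RefSeq windows of 250 bases before to 50 bases after the start of each gene (assembly GRCr8), which matched 9 of the 10 genes, all but Atf3. For Asns and Atf5 the window does not begin at the outer end of the annotated gene, so 7 of the 9 windows lie at that end. The element was found in 2 of these 9 windows, those of Chac1 and Trib3, and in 3.98% of all 33469 windows. Both genes are among the 5 that rose most, and their 250 bases before the start are shown with the match, here on the reverse strand, in capitals. The window of Ddit3, which rose too and holds no match, is given for comparison.
Chac1, chr3:126795881-126796130, plus strand: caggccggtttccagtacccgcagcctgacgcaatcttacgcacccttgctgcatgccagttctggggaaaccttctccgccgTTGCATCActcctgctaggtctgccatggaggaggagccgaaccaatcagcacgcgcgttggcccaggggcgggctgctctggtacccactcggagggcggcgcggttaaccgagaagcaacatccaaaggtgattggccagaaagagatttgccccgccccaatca
Trib3, chr3:161275534-161275783, minus strand: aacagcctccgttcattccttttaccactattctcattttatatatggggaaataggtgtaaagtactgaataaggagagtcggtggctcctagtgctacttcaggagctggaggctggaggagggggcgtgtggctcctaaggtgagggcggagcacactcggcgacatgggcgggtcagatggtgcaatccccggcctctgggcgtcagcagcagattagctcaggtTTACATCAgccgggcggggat
Ddit3, chr7:65001445-65001694, plus strand: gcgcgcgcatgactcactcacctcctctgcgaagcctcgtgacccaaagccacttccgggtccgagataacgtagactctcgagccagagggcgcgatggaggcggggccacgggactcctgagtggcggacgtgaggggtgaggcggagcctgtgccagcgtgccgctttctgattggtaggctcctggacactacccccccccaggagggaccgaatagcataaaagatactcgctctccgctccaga
The match lay 167 to 160 bases before the start in Chac1 and 21 to 14 bases before it in Trib3. The longer form TGATGNAAT, which contains the core, was in 0 of the 9 windows and in 1.09% of all. The cyclic AMP response element TGACGTCA was in 0 of 9 (1.83% of all), and the endoplasmic reticulum stress element, searched in its full form, was in 0 of 9 (0.0657% of all). The CCAAT box in its reverse form GATTGG was in 4 of 9 windows, those of Chac1, Ddit3, Ddit4 and Sesn2, and in 14.8% of all; its letters overlap those of the stress element. The E-box CACGTG was in the window of Atf4 and in 6.42% of all. A match describes these letters only, and a window without a match says nothing about binding elsewhere.

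**Figure D1:**
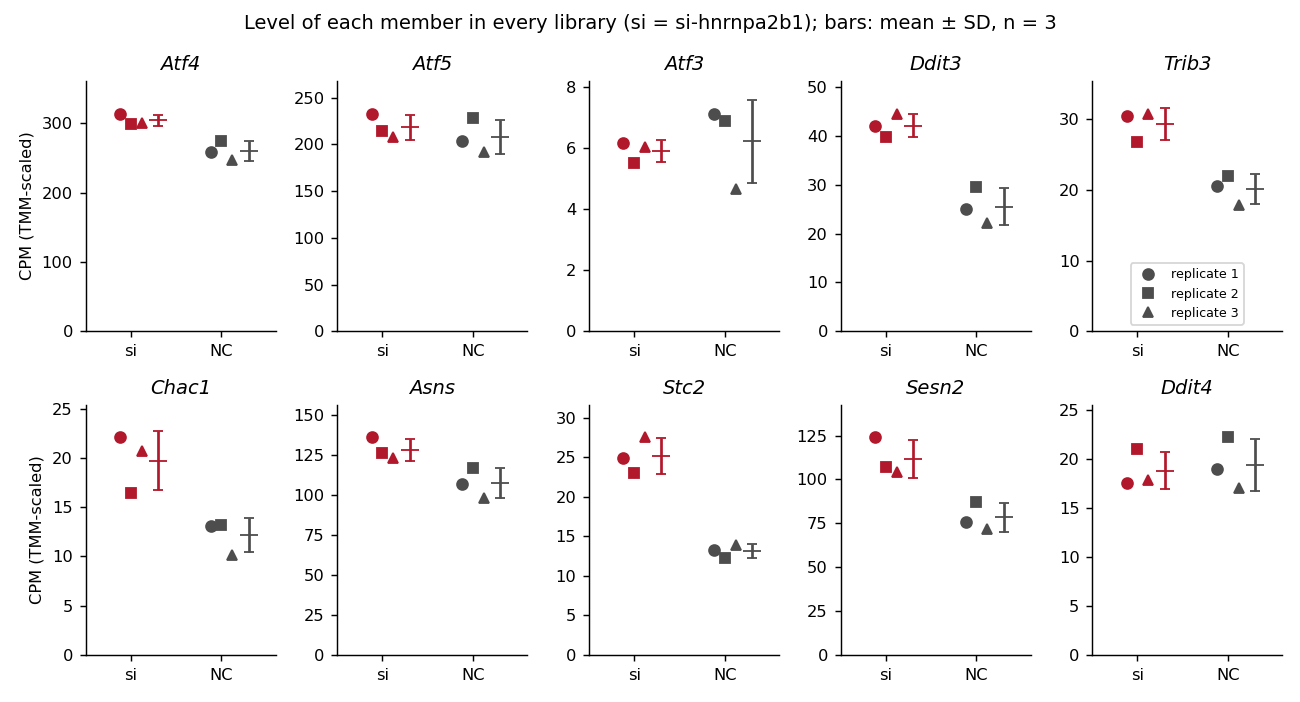
Level of each of the 10 genes in CPM (y axis, from 0) in the 3 si-hnrnpa2b1 libraries (red, left) and the 3 NC libraries (grey, right); symbols mark replicate numbers, which pair no samples, and bars are mean ± SD. In Atf4, Ddit3, Trib3, Chac1, Asns, Stc2 and Sesn2 the red points all lie above the grey ones; in Atf5, Atf3 and Ddit4 they overlap.

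Among the transcription factors, Atf4 rose by a small amount and Ddit3 by a large one. Atf4 (ENSRNOG00000017801, chromosome 7, 121480723 to 121482781 of Rnor_6.0) had 314, 299 and 300 CPM in si-hnrnpa2b1 libraries, against 258, 275 and 247 CPM in NC libraries. The lowest si-hnrnpa2b1 library stood above the highest NC library, and the fitted log2 fold change was 0.23 ± 0.05, with an edgeR adjusted p of 0.011. The call was lost without si-hnrnpa2b1 replicate 1 (edgeR adjusted p = 0.051) and without NC replicate 3 (edgeR adjusted p = 0.057). Since ATF4 is controlled largely at translation, its mRNA level does not give the level of the protein, which was not measured.

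Ddit3 (ENSRNOG00000006789, chromosome 7, 70580198 to 70585084) encodes CHOP, a C/EBP-family factor that ATF4 induces and that is known for promoting death of stressed cells. It had 42.0, 39.8 and 44.6 CPM in si-hnrnpa2b1 libraries, against 25.1, 29.5 and 22.1 CPM in NC libraries (log2 0.72 ± 0.10, edgeR adjusted p = 0.00029). The groups stood well apart. The model shares 72 bases with that of Mars, the cytosolic methionyl-tRNA synthetase, whose model held 1420, 1479 and 1371 counts in si-hnrnpa2b1 and 1292, 978 and 1221 counts in NC libraries, against 632, 587 and 658 and 356, 390 and 328 counts for Ddit3. Mars had 95.9 ± 3.92 CPM in si-hnrnpa2b1 and 82.5 ± 8.61 CPM in NC libraries (SD, n = 3 each; log2 0.22 ± 0.07, edgeR adjusted p = 0.096), and passed only without NC replicate 1 (edgeR adjusted p = 0.031). The sources used here do not state how reads in the shared stretch were assigned. At the mean density of Mars, that stretch would hold 35 to 38 reads per si-hnrnpa2b1 library and 25 to 33 reads per NC library. This is 5.32% to 6.47% of the Ddit3 counts in si-hnrnpa2b1 and 6.41% to 9.76% in NC. With these reads taken off Ddit3, an alternative chosen after seeing the data, its log2 fold change was 0.76 ± 0.10 (edgeR adjusted p = 0.00037).

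Atf5 (ENSRNOG00000020060, chromosome 1, 100808241 to 100810522), a relative of ATF4 that is likewise controlled at translation and known for the mitochondrial stress response, did not pass. Its values were 233, 214 and 208 CPM in si-hnrnpa2b1 libraries and 204, 228 and 192 CPM in NC libraries. The groups overlapped, and the 95% interval of the log2 fold change ran from -0.06 to 0.20 (edgeR adjusted p = 0.60).

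Atf3 (ENSRNOG00000003745, chromosome 13, 109817728 to 109849632), a stress-induced factor that represses many of its targets, was the gene with the fewest counts of the 10, at 81 to 93 per si-hnrnpa2b1 library and 69 to 101 per NC library. It had 6.17, 5.50 and 6.04 CPM in si-hnrnpa2b1 and 7.13, 6.89 and 4.65 CPM in NC libraries. The si-hnrnpa2b1 values lay between the lowest and the highest NC value. The 95% interval of the log2 fold change, -0.45 to 0.31, is the widest of the 10 (edgeR adjusted p = 0.89). Leaving out NC replicate 1 or NC replicate 2 turned its sign.

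Trib3, the feedback inhibitor of the pathway, rose. Trib3 (ENSRNOG00000007319, chromosome 3, 147813473 to 147819571) encodes a pseudokinase induced by ATF4 and CHOP that binds ATF4 and also the kinase AKT, and it is known in liver for a link to insulin signalling. It had 30.4, 26.8 and 30.8 CPM in si-hnrnpa2b1 libraries, against 20.5, 22 and 17.9 CPM in NC libraries (log2 0.55 ± 0.10, edgeR adjusted p = 0.0036). All si-hnrnpa2b1 libraries stood above all NC libraries.

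Both enzymes of the group rose. Chac1 (ENSRNOG00000014387, chromosome 3, 111160205 to 111163425) encodes a gamma-glutamylcyclotransferase that breaks down glutathione. It had 22.1, 16.4 and 20.7 CPM in si-hnrnpa2b1 libraries, against 13.1, 13.2 and 10.2 CPM in NC libraries (log2 0.70 ± 0.13, edgeR adjusted p = 0.0051). Among si-hnrnpa2b1 libraries, replicate 2 was the lowest and came closest to NC.

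Asns (ENSRNOG00000007546, chromosome 4, 33743364 to 33761163) encodes asparagine synthetase and is the classical target of the amino acid branch. It had 136, 126 and 123 CPM in si-hnrnpa2b1 libraries, against 107, 117 and 98.1 CPM in NC libraries (log2 0.26 ± 0.06, edgeR adjusted p = 0.028). The groups did not overlap, but the gap between them was small. The call was the least stable of the 7: it was lost without si-hnrnpa2b1 replicate 1, 2 or 3, without NC replicate 1 or 3, and with limma for FPKM at either pseudocount (1 or 0.1). Adjusted p reached 0.13, and the sign stayed positive throughout.

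Stc2, the secreted member, rose most. Stc2 (ENSRNOG00000020729, chromosome 10, 16542882 to 16553295) encodes stanniocalcin 2, a secreted glycoprotein that inhibits the protease PAPP-A and through it the release of insulin-like growth factor. It had 24.9, 23.0 and 27.5 CPM in si-hnrnpa2b1 libraries, against 13.3, 12.2 and 13.9 CPM in NC libraries. The log2 fold change was 0.93 ± 0.10 (edgeR adjusted p = 6.6e-05), with a 95% interval of 0.71 to 1.16, and the groups were the most widely separated of the 10 genes.

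Of the pair that restrains the growth kinase complex mTORC1, Sesn2 rose and Ddit4 did not pass. Sesn2 (ENSRNOG00000042785, chromosome 5, 150684133 to 150704117) encodes sestrin 2, a leucine sensor. It had 124, 107 and 104 CPM in si-hnrnpa2b1 libraries, against 75.9, 87.4 and 71.8 CPM in NC libraries (log2 0.51 ± 0.08, edgeR adjusted p = 0.00092). All si-hnrnpa2b1 libraries stood above the NC range. Ddit4 (ENSRNOG00000057078, chromosome 20, 29509289 to 29511382) encodes REDD1, which acts through the TSC complex and also answers to glucocorticoid and low oxygen. It had 17.5, 21.0 and 17.9 CPM in si-hnrnpa2b1 and 19.0, 22.2 and 17.0 CPM in NC libraries. The groups overlapped (log2 -0.04 ± 0.12, 95% interval -0.29 to 0.20, edgeR adjusted p = 0.90), and the sign turned without si-hnrnpa2b1 replicate 1 or NC replicate 2. Whether the changes of Sesn2 and Ddit4 differ from each other was not tested.

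**Figure D2:**
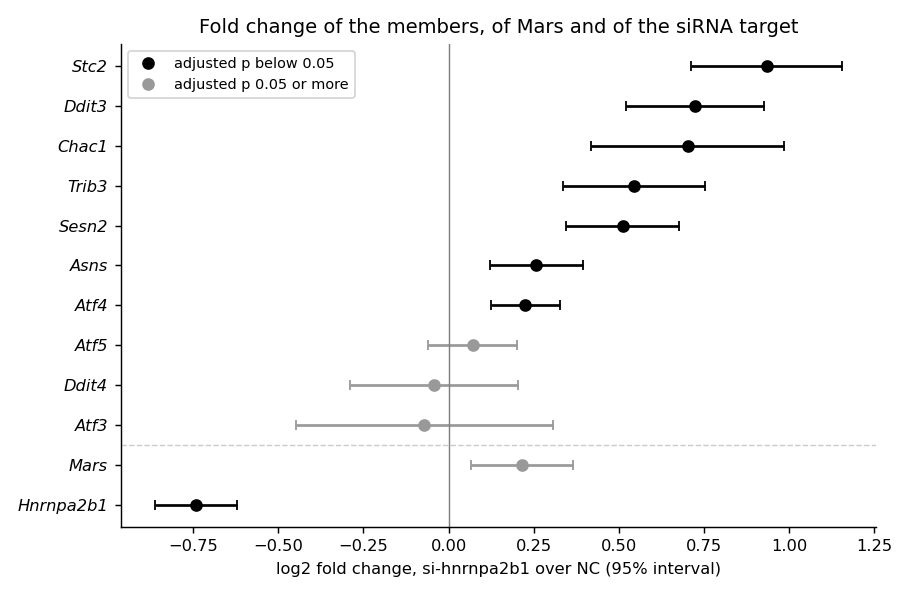
Log2 fold change of the 10 genes (x axis, si-hnrnpa2b1 over NC; points with 95% intervals of edgeR's fit), with Mars and Hnrnpa2b1 under the dashed line. Black marks an adjusted p below 0.05. Stc2 stands highest at 0.93, and the intervals of Atf5, Ddit4 and Atf3 include 0.

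Set against Atf4 in the same library, the 5 genes that rose most had higher ratios in si-hnrnpa2b1 libraries. The design was too small for a call. All 5 had a larger fold change than Atf4, so the direction of these ratios restates those values and is no separate result. The ratio of counts, taken as log2, was higher in every si-hnrnpa2b1 library than in every NC library for 5 of 9 genes. It was lower throughout for 1 and overlapped for 3. Such ratios were not taken for all tested genes, so these counts have no share of all genes beside them. Atf4 itself rose, so a gene without change would have a lower ratio. For Stc2 the ratio was -3.66, -3.70 and -3.45 in si-hnrnpa2b1 libraries, against -4.27, -4.50 and -4.16 in NC libraries, a difference of 0.71. The differences for Ddit3, Chac1, Trib3 and Sesn2 were 0.50, 0.47, 0.32 and 0.28. The ratio of Asns was -1.21, -1.25 and -1.29 in si-hnrnpa2b1 libraries and -1.27, -1.24 and -1.33 in NC libraries, values that overlap. The ratio of Atf5 was lower in all si-hnrnpa2b1 libraries, by 0.15 on average, at -0.43, -0.48 and -0.53 against -0.34, -0.27 and -0.36 in NC libraries. With 3 libraries against 3 a two-sided exact permutation test cannot go below p = 0.10, the value that these 6 genes gave (0.15 after Benjamini-Hochberg adjustment over the 9 ratios), so no ratio could pass 0.05.

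**Figure D3:**
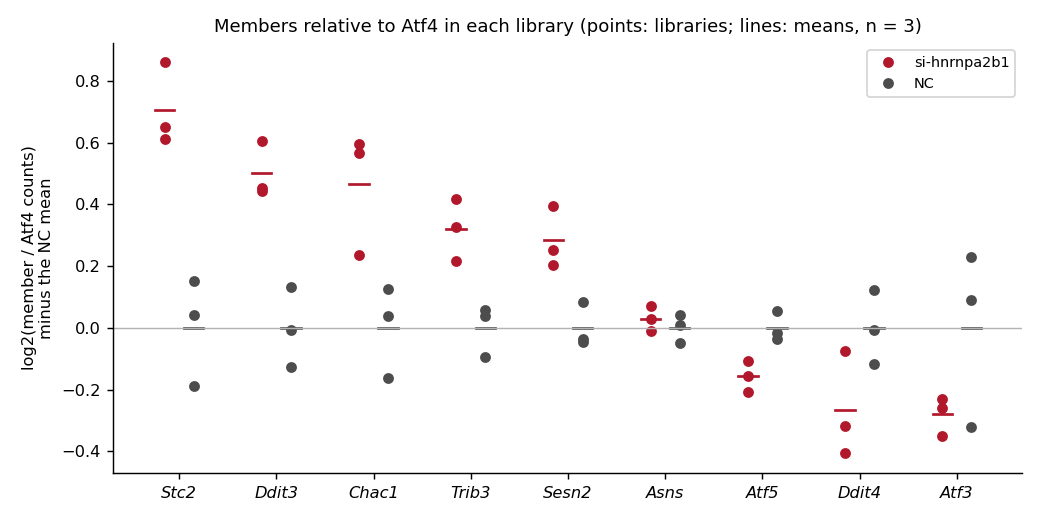
Log2 ratio of each gene's counts to those of Atf4 in the same library, minus the mean of the NC libraries (y axis), for 9 genes ordered by the difference; points are libraries and lines are means of 3. The red si-hnrnpa2b1 points of Stc2, Ddit3, Chac1, Trib3 and Sesn2 lie above the grey NC points, those of Asns, Ddit4 and Atf3 overlap them, and those of Atf5 lie below.

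Per length of gene model, Atf4 and Atf5 were by far the most abundant of the 10 in both groups and Atf3 the least. In si-hnrnpa2b1 cells the order by mean FPKM was Atf4 (215 ± 4.24), Atf5 (212 ± 10.9), Asns (49.5 ± 2.21), Sesn2 (29.8 ± 2.65), Ddit3 (26.6 ± 1.57), Stc2 (16.1 ± 1.47), Trib3 (15.1 ± 1.1), Chac1 (12.5 ± 1.82), Ddit4 (10.9 ± 1.14) and Atf3 (1.3 ± 0.07; SD, n = 3 each). The ranges of these neighbours overlapped between Atf4 and Atf5, between Sesn2 and Ddit3, and along the run from Stc2 to Ddit4. In NC cells the order was Atf5 (202 ± 15.6), Atf4 (185 ± 8.14), Asns (41.5 ± 3.19), Sesn2 (21.0 ± 1.94), Ddit3 (16.2 ± 2.20), Ddit4 (11.3 ± 1.43), Trib3 (10.4 ± 0.99), Stc2 (8.44 ± 0.64), Chac1 (7.75 ± 1.02) and Atf3 (1.37 ± 0.30; SD, n = 3 each). There the ranges overlapped between Atf5 and Atf4, Ddit4 and Trib3, and Stc2 and Chac1. Ddit4 thus stood ninth in si-hnrnpa2b1 cells and sixth in NC cells, and Stc2 sixth in si-hnrnpa2b1 cells and eighth in NC cells. Together the 10 genes took 0.0880% to 0.0939% of counts in si-hnrnpa2b1 libraries and 0.0700% to 0.0804% in NC libraries.

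Libraries of one group also differed over most of the 10 genes at once. Relative to the NC mean, their average log2 CPM was 0.44, 0.32 and 0.40 in si-hnrnpa2b1 libraries, against 0.03, 0.12 and -0.15 in NC libraries. NC replicate 3 was the lowest NC library for 9 of the 10 genes, all but Stc2, whereas it was the lowest for 31.1% of all tested genes. NC replicate 2 was the highest for 8 of 10, beside 35.7% of all tested genes. Among si-hnrnpa2b1 libraries, replicate 1 was the highest for 6 and replicate 2 the lowest for 6 of the 10, beside 35% and 32.8% of all. Without NC replicate 3, 5 of the 10 genes passed, and without si-hnrnpa2b1 replicate 1 also 5, the losses being Atf4 and Asns in both. The 10 counts of one library share its RNA, so these are descriptions of 6 libraries.

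**Figure D4:**
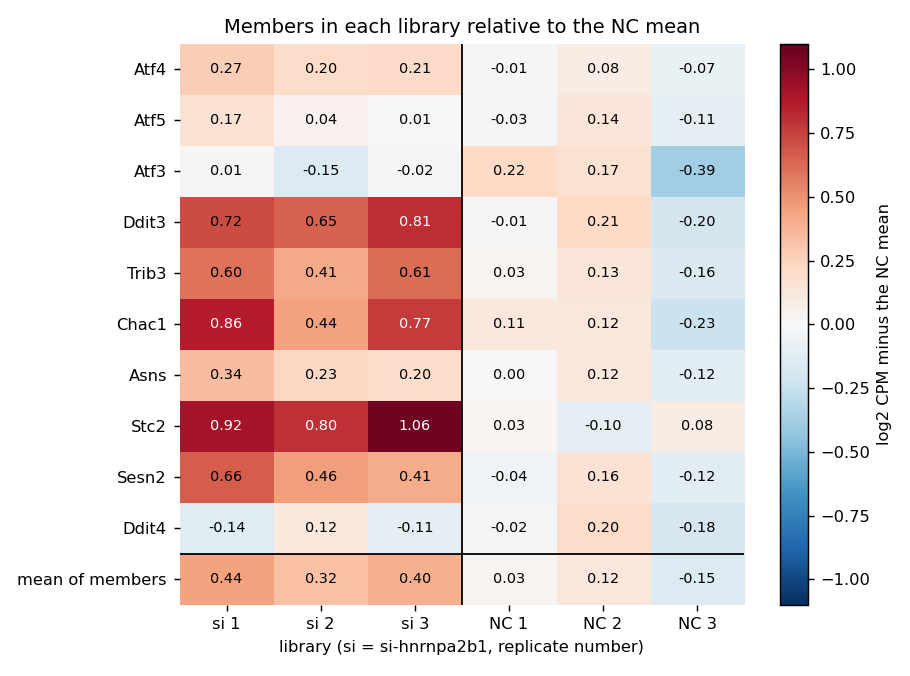
Log2 CPM of the 10 genes in each library minus their NC mean, as colour and number, with the mean over the genes in the bottom row; columns are the 3 si-hnrnpa2b1 libraries and then the 3 NC libraries. NC 3 is below 0 in all rows but Stc2, and the bottom row runs from 0.32 to 0.44 in si-hnrnpa2b1 libraries.

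Outside the 10, the genes nearest to their average profile, by the root mean square (RMS) difference in log2 CPM over the 6 libraries, were Slc7a5 (0.06), Cyr61 (0.06), Sms (0.06), Stom (0.06) and Psph (0.07). The profile is higher in si-hnrnpa2b1 libraries, so genes near it were in effect picked for a rise, and their calls are no separate result. Slc7a5, the large neutral amino acid transporter, and Psph, the last enzyme of serine synthesis, are known targets of ATF4. Slc7a5 had 208 ± 5.58 CPM in si-hnrnpa2b1 and 166 ± 13 CPM in NC libraries (SD, n = 3 each; log2 0.33 ± 0.06, edgeR adjusted p = 0.0019). Cyr61, a matricellular protein, and Stom, a membrane scaffold, rose with log2 fold changes of 0.39 ± 0.05 and 0.34 ± 0.06 (edgeR adjusted p = 0.00011 and 0.0038). Sms, spermine synthase, had a log2 fold change of 0.37 ± 0.11 and did not pass (edgeR adjusted p = 0.073). Psph had 50 ± 1.62 CPM in si-hnrnpa2b1 and 40.6 ± 5.15 CPM in NC libraries (SD, n = 3 each; log2 0.30 ± 0.08, edgeR adjusted p = 0.046), a call that 8 of 15 alternatives ended, single libraries left out among them (adjusted p up to 0.17).

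Upstream of ATF4, the count of calls was close to that of all genes. Of 20 tested genes for eIF2alpha kinases, phosphatases and the exchange factor eIF2B, 0 rose and 1 fell by edgeR. Among all tested genes 2.36% were called higher and 2.94% lower. Of the 20, 4 were below an unadjusted edgeR p of 0.05, beside 2249 of all 12261 tested genes. Besides the gene that fell, the 4 were Eif2b3, Dnajc3 and Ppp1r15a, with log2 fold changes of 0.31, 0.17 and 0.19. The list held 2 calls without si-hnrnpa2b1 replicate 2, 3 without NC replicate 2 and 1 without each of the other libraries. The gene that fell was Eif2ak2, which encodes PKR, the eIF2alpha kinase that senses double-stranded RNA and is itself induced by interferon. It had 303, 288 and 299 CPM in si-hnrnpa2b1 libraries, against 411, 388 and 376 CPM in NC libraries (log2 -0.40 ± 0.05, edgeR adjusted p = 8.3e-05). The kinases of the endoplasmic reticulum and of amino acid shortage did not pass: Eif2ak3 (PERK) had 48.0 ± 0.75 CPM in si-hnrnpa2b1 and 46.0 ± 0.47 CPM in NC libraries (SD, n = 3 each), and Eif2ak4 (GCN2) had 72.6 ± 5.66 CPM and 73.0 ± 2.31 CPM. The model of Eif2ak4 overlaps that of Srp14, which held 7686 counts over the 6 libraries, beside 6320 for Eif2ak4. Ppp1r15a (GADD34), the stress-induced phosphatase subunit that closes the loop, had 92.2 ± 2.53 CPM in si-hnrnpa2b1 and 80.9 ± 7.54 CPM in NC libraries (log2 0.19 ± 0.07, edgeR adjusted p = 0.13). Phosphorylation of eIF2alpha was not measured.

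Partners and close relatives of the 10 gave 0 rises, in lists too short to tell 0 from the 2.36% of all tested genes called higher. Of 19 tested bZIP partners and regulators of ATF4 protein, 0 passed by edgeR, and DESeq2 and limma also called 0. Of the 19, 6 were below an unadjusted edgeR p of 0.05, beside 2249 of all 12261 tested genes. Cebpb, a dimer partner of ATF4, had 81.0 ± 0.38 CPM in si-hnrnpa2b1 and 90.2 ± 6.42 CPM in NC libraries (log2 -0.16 ± 0.06, edgeR adjusted p = 0.17), and Cebpg had 57.8 ± 5.03 CPM and 51.7 ± 4.55 CPM (edgeR adjusted p = 0.29). Of 7 relatives that share a family with a listed gene (Trib1, Trib2, Stc1, Sesn1, Sesn3, Chac2 and Jdp2), 0 rose and 1 fell. Trib1, which in liver is known for control of lipid synthesis, had 22.6, 25.5 and 26.3 CPM in si-hnrnpa2b1 libraries, against 29.3, 36.6 and 30.1 CPM in NC libraries (log2 -0.37 ± 0.10, edgeR adjusted p = 0.041). That call was lost without si-hnrnpa2b1 replicate 1, 2 or 3, without NC replicate 2 as well as by limma on FPKM (adjusted p up to 0.16). Stc1, the paralog of Stc2, had 13 ± 1.02 CPM in si-hnrnpa2b1 and 14.1 ± 1.66 CPM in NC libraries (log2 -0.12 ± 0.12, edgeR adjusted p = 0.68).

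In the lists given here of other known targets of ATF4, most rises lay in that of amino acid supply. Beside these counts, 2.36% of all tested genes were called higher and 2.94% lower. Of 17 tested transporters and enzymes of amino acid supply, 13 rose, 0 fell and 4 did not pass, with a median log2 fold change of 0.26. The count was 6 to 11 when single libraries were left out and 5 or 6 by limma on FPKM. Those with the smallest adjusted p were Mthfd2, Slc3a2, Slc7a5 and Slc6a9. Mthfd2 of mitochondrial folate metabolism had 58.5, 65.3 and 57.9 CPM in si-hnrnpa2b1 libraries, against 40.4, 39.8 and 39.1 CPM in NC libraries (log2 0.61 ± 0.07, edgeR adjusted p = 6.8e-05). Slc6a9, a glycine transporter, had 54.4 ± 2.18 CPM in si-hnrnpa2b1 and 42.3 ± 1.84 CPM in NC libraries (SD, n = 3 each; edgeR adjusted p = 0.0040). Of 17 tested genes of autophagy and mTORC1 restraint 1 rose, Eif4ebp1, the inhibitor of cap-dependent translation (log2 0.23 ± 0.06, edgeR adjusted p = 0.030), which did not pass without si-hnrnpa2b1 replicate 1, 2 or 3, without NC replicate 1 or 3 and with the replicate block (adjusted p up to 0.13). Of 8 tested genes of cell death downstream of CHOP 1 rose, the growth arrest gene Gadd45a, with 55.2 ± 3.06 CPM in si-hnrnpa2b1 and 40.8 ± 0.43 CPM in NC libraries (SD, n = 3 each; log2 0.44 ± 0.07, edgeR adjusted p = 0.00092). The death receptor Tnfrsf10b, a known target of CHOP, had 1.57 ± 0.66 CPM in si-hnrnpa2b1 and 0.69 ± 0.54 CPM in NC libraries (edgeR adjusted p = 0.21). Of 7 tested genes of secretion and metabolism 3 rose. They were Herpud1 and Sel1l, both of disposal of misfolded protein, and Vldlr, a lipoprotein receptor (log2 0.51, 0.20 and 0.35). Sel1l is also in the list of the ATF6 and XBP1 branch, so its rise is counted in both lists. Sel1l was lost without si-hnrnpa2b1 replicate 2 or 3 or NC replicate 1 or 3, and Vldlr without si-hnrnpa2b1 replicate 2; both were lost by limma on FPKM. Fgf21 and Igfbp1, which encode secreted proteins, were listed at 0 in all 6 libraries, and Gdf15 had 16 counts in all.

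**Figure D5:**
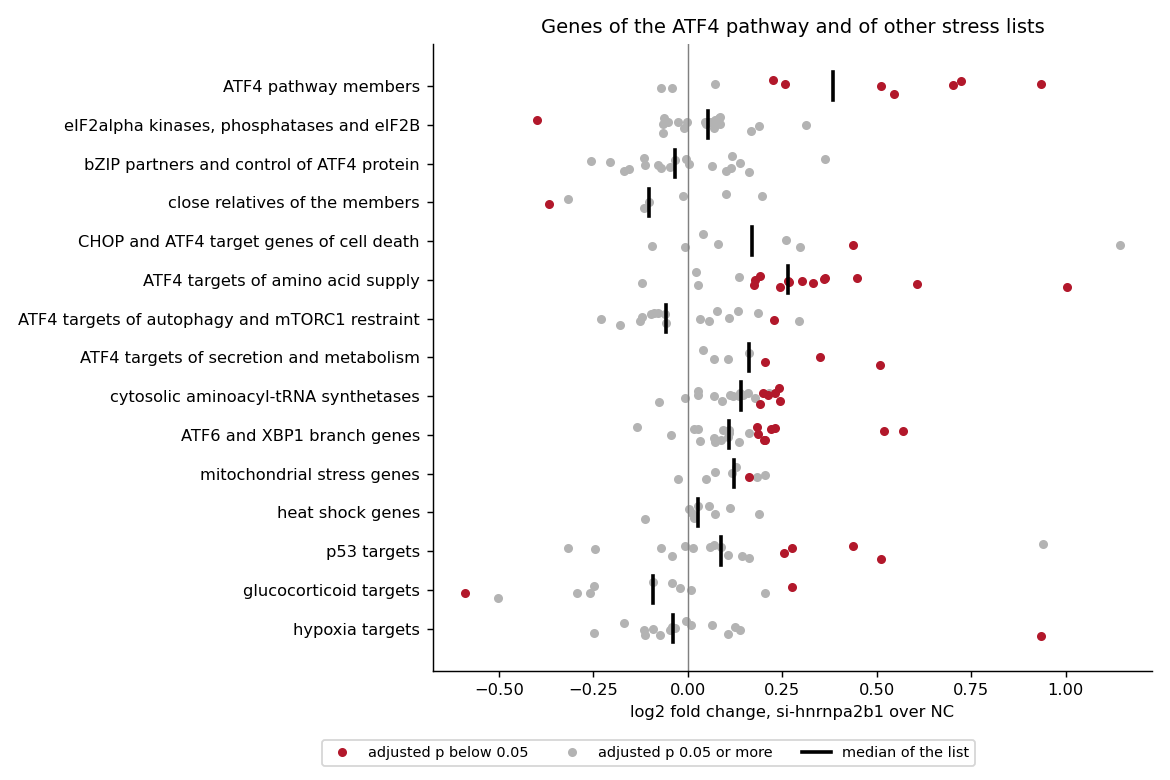
Log2 fold change (x axis, si-hnrnpa2b1 over NC) of each tested gene in the 10 listed genes (top row) and in 14 other lists; red marks an adjusted p below 0.05, grey the rest, and black bars are list medians. The medians are 0.39 for the 10 genes, 0.26 for amino acid supply and -0.10 for the close relatives.

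The synthetases and the other stress lists had smaller medians than the 10 genes. This division into lists does not place the synthetases outside control by ATF4. The counts stand beside 2.36% of all tested genes called higher and 2.94% called lower. Of 20 tested cytosolic aminoacyl-tRNA synthetases 6 rose and 0 fell (median 0.14), Aars, Sars, Iars and Yars with the smallest adjusted p; leaving out single libraries gave 2 to 8, and limma on FPKM 2. Aars passed under all 15 alternatives, Sars did not without si-hnrnpa2b1 replicate 3 (adjusted p = 0.053 by edgeR), and Iars and Yars were lost under 5 and 6. Of 23 tested genes of the ATF6 and XBP1 branch of the unfolded protein response 8 rose and 0 fell (median 0.11), led by the chaperone genes Creld2 and Dnajb9 (log2 0.57 ± 0.06 and 0.52 ± 0.07); leaving out single libraries gave 2 to 8. Heat shock genes gave 0 calls of 9 by edgeR and by DESeq2. Of the 9, 2 were below an unadjusted edgeR p of 0.05, beside 2249 of all 12261 tested genes. Hspa1a, Hsp90aa1 and Hspa1b, at 0, 0 and 53 counts over the 6 libraries, were not tested. The tested model named Hspa8 held 148 counts over the 6 libraries. Of 8 tested mitochondrial stress genes 1 rose, the chaperone Hspa9 (log2 0.16, edgeR adjusted p = 0.049), lost under 9 of 15 alternatives with adjusted p up to 0.18.

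The 3 other programmes that are known to control Sesn2, Ddit4 or Stc2 gave mixed values. For comparison, 2.36% of all tested genes were called higher and 2.94% lower. Of 17 tested p53 targets 4 rose and 0 fell: Sesn2 itself, Gadd45a, the polo-like kinase Plk2 and the AKT inhibitor Phlda3, whose call was lost without si-hnrnpa2b1 replicate 1 or 3 or NC replicate 3 (adjusted p up to 0.053). The p53 feedback gene Mdm2 did not pass (79.3 ± 1.76 CPM in si-hnrnpa2b1 and 70.9 ± 3.09 CPM in NC libraries; edgeR adjusted p = 0.14), and Sesn1, the p53-controlled sestrin, had 10.2 ± 1.22 CPM and 12.7 ± 1.46 CPM (SD, n = 3 each; edgeR adjusted p = 0.20). Among 16 tested targets of low oxygen Stc2 was the 1 gene that rose, and the median was -0.04; without NC replicate 2 or NC replicate 3 the list held 2 calls. Among 11 tested glucocorticoid targets, Ddit4 included, 1 rose and 1 fell, with a median of -0.09; the rise, that of the phosphatase Dusp1, had an edgeR adjusted p of 0.049 and was lost under 9 of 15 alternatives, with adjusted p up to 0.22. The fall was that of a model named Mt1, a metallothionein with near-identical copies that may share its reads. This model, with 1313 counts over the 6 libraries, lies over 389 bases within that of Dclre1c, with 842 counts, and how shared reads were assigned is not stated. Its level was 12.2 ± 0.56 CPM in si-hnrnpa2b1 and 18.3 ± 2.72 CPM in NC libraries (SD, n = 3 each; log2 -0.59 ± 0.12, edgeR adjusted p = 0.0092), and it did not pass when NC replicate 1 was left out (edgeR adjusted p = 0.054).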

How the data were processed

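RNA was sequenced from 3 si-hnrnpa2b1 and 3 NC libraries of BRL-3A cells, grouped by sample title. The submitters' processing notes name the build Rnor_6.0 and the tools edgeR, HISAT2 2.0.4 and StringTie 1.3.0, without role or order. The deposited counts are raw: whole numbers for each gene in each library. The FPKM values deposited by the authors follow from the counts, one length for each gene and the library total with deviations below 0.0617%. The sources used here do not state the counting program, annotation release, strand setting or treatment of reads shared by genes.

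Counts were tested with edgeR 4.0.16 (R 4.3.3): filterByExpr (minimum count 10, minimum total count 15) left 12261 genes, scaling was TMM, and the quasi-likelihood F-test was two-sided with Benjamini-Hochberg adjustment and a threshold of 0.05. The script was tested on simulated data. Replicate pairs differed by more than sampling noise, with chi-square per degree of freedom from 2.91 to 6.00. Of the listed genes, 278 entries matched a symbol and 6 an older one, 17 repeated a gene and 10 were not matched. Alternatives were DESeq2 1.42.0, other scalings and filters, limma 3.58.1 on log2 FPKM of genes with a mean of at least 0.5 FPKM, single libraries left out, and a replicate block. Count intervals cover counting error only.

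The 10 genes, the lists and the tests were chosen with earlier results of these data known. The text names the 10 genes, Hnrnpa2b1 and Mars, up to 4 genes of smallest adjusted p per list, and the 5 genes with a mean of at least 5 CPM nearest to the average profile. Gdf15, Fgf21, Igfbp1, Eif2ak3, Eif2ak4, Ppp1r15a, Cebpg, Stc1 and Alb, among other genes given as background, were named after their values were seen. Sequences come from RefSeq (GRCr8).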

Additional observations from a re-analysis of the deposited data

How the results depend on the processing

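Stc2, Ddit3, Chac1, Trib3 and Sesn2 were called under all 15 alternatives, with adjusted p up to 0.035. Of the 10 genes, 7 were called under each change of scaling or filter and by DESeq2, 6 by limma on either FPKM scale, and 5 to 7 when single libraries were left out. The replicate numbers pair no samples (correlations of 0.06, -0.00 and 0.06 between same-numbered libraries); with the replicate block 7 of the 10 genes and 481 of all genes were called, and Atf4 and Asns had adjusted p of 0.028 and 0.040. The number of all genes called was 650, against 308 by limma on log2(FPKM + 1), 293 on log2(FPKM + 0.1) and 379 to 592 without single libraries, where fewer samples enter. The cause of the lower limma counts was not tested. Without single libraries the log2 fold change of Atf3 ran from -0.248 to 0.042 (0.042 and 0.007 without NC replicate 1 or 2), and that of Ddit4 from -0.132 to 0.065 (0.005 and 0.065 without si-hnrnpa2b1 replicate 1 or NC replicate 2). By limma on the FPKM scales, amino acid supply had 6 and 5 calls beside 13, the synthetases 2 and 2 beside 6, the ATF6 and XBP1 branch 4 and 3 beside 8, and secretion and metabolism 1 and 1 beside 3. The same 5 genes were nearest to the average profile with a prior count of 0.5. Atf3 had the fewest counts of the 10 genes, 69 to 101 per library, and the widest interval.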
